A study of Mus musculus with 6 samples.

Results

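DNA methylation was compared at 10 genes grouped as writers, erasers and readers of 5-methylcytosine (5mC), namely Dnmt1, Dnmt3a, Dnmt3b, Tet1, Tet2, Tet3, Tdg, Uhrf2, Zbtb38 and Mbd3. They were chosen by name from 21938 annotated protein-coding genes and lie on autosomes. In all 6 libraries 646645 CpG cytosines had a coverage of 6 reads or more, and 550 of them lay between 5000 bp upstream of the annotated 5′ end and the end of these genes. Each locus was divided into a promoter, which began 1000 bp before the 5′ end and ended 500 bp after it, an upstream flank beyond it and the gene body.

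Oxidative reduced representation bisulfite sequencing, or Ox-RRBS, was applied to the whole cerebral cortex of C57BL/6 mouse embryos at embryonic day 16. MspI cuts DNA at CCGG and so selects CpG-rich fragments, oxidation makes 5-hydroxymethylcytosine read as unmethylated, and bisulfite then makes unmethylated cytosine read as T. Controls were heterozygous for Uhrf1 (Uhrf1 +/-, n = 3) and were compared with conditional knockouts (cKO, n = 3), labelled Uhrf1 -/-. Both groups carry Emx1 Cre, which deletes the floxed exon 4 of Uhrf1 in the dorsal telencephalon, from 1 allele in controls and from both in cKOs. The labels state neither litters nor whether every library is a separate embryo, so every p-value refers only to the libraries in its fit. The spread it uses is partly shared over all features of a class. Whole cortex also holds cells outside the Emx1 lineage, and an intermediate methylation level of bulk tissue cannot tell fewer methylated cells from fewer methylated alleles per cell. No RNA was measured in these libraries, so neither the tissue nor the activity of the genes was checked by expression, and the exon deletion was not checked here.

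At replication the maintenance methyltransferase Dnmt1 copies methylation onto the new strand, and Uhrf1 recruits it to hemimethylated CpGs, while Dnmt3a and Dnmt3b methylate unmethylated sites. Tet1, Tet2 and Tet3 oxidize 5mC, and the glycosylase Tdg excises the most oxidized forms, so that an unmodified base can be put back. Uhrf2 is the close relative of Uhrf1, and Zbtb38 is a zinc finger protein that binds methylated DNA. Mbd3 is a subunit of the NuRD chromatin remodeling and deacetylase complex. It belongs to the methyl-CpG-binding domain family and is grouped with the readers by that family, and its binding of 5mC was not examined. CpG islands at the starts of transcribed genes are usually unmethylated, whereas CpGs in the bodies of genes usually carry methylation.

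Coverage summed over listed cytosines was between 18238737 and 31019082 per library, which is not a number of reads. The median coverage was 13 to 17 reads per cytosine. The library labelled control replicate 1 stood apart from the other controls before any test. In the bodies of the 10 genes it was below control replicates 2 and 3 in 10 of 10, and at or below the highest cKO library in 9 of 10. Of all 13394 bodies, 8.62% had every cKO library below every control with all 6 libraries, and 84.4% without this one. The library thus stood apart in the bodies of other genes too. Each count of calls is therefore given with all 6 libraries and without this library, and levels or differences set against control replicates 2 and 3 leave it out. Leaving it out is a choice made by the outcome itself, and all calls that rest on it depend on that choice. It also lowers the spread used in the tests. The dispersion (extra spread between libraries) shared over all bodies was 35.4 with all 6 libraries and 6.09 without this one.

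In GRCm38, to which all coordinates refer, the writers lie at chr9:20907209-20959888 (Dnmt1, minus strand), chr12:3806007-3914443 (Dnmt3a, plus strand) and chr2:153649450-153687730 (Dnmt3b, plus strand). The erasers lie at chr10:62804570-62908996 (Tet1, minus strand), chr3:133463679-133545139 (Tet2, minus strand), chr6:83362373-83459084 (Tet3, minus strand) and chr10:82629828-82650799 (Tdg, plus strand). The readers lie at chr19:30030513-30093722 (Uhrf2, plus strand), chr9:96682770-96752831 (Zbtb38, minus strand) and chr10:80392539-80399550 (Mbd3, minus strand). Cytosines covered in all 6 libraries were most numerous at Tet3 (118) and fewest at Tdg (18).

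The following 100 bp windows show the contrast on which the results turn, on the plus strand of the GRCm38 sequence (RefSeq), with the covered CpGs in capitals. The first 4 were at 89.6% or more in control replicates 2 and 3 and at 45.0% or less in every cKO library. They come from windows named by a rule given below, which itself uses calls and falls. Other windows named by that rule kept more methylation in cKOs. Control replicate 1, whose values are given below, was lower than control replicates 2 and 3 in each of the first 4. The last 3, taken after their values were seen, were at 3.65% or less in every library.

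Dnmt1, intron (chr9:20931101-20931200): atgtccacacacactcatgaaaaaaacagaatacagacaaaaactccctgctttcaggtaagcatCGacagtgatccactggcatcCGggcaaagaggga
Dnmt3b, intron (chr2:153678201-153678300): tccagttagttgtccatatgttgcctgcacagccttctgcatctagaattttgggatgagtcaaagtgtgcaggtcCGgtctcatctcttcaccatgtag
Tet1, coding exon (chr10:62839701-62839800): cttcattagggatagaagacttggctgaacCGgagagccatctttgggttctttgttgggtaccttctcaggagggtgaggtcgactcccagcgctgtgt
Tet3, coding exon (chr6:83404501-83404600): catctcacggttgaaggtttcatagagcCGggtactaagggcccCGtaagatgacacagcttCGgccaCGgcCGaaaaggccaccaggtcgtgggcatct
Tet1, intron, in the island at an internal transcript start (chr10:62886801-62886900): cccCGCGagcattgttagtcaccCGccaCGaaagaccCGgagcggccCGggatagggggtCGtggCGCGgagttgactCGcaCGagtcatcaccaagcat
Tet3, intron, in the island at an internal transcript start (chr6:83456501-83456600): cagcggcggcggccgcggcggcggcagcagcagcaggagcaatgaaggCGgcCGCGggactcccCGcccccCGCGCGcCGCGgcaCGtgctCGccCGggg
Uhrf2, just upstream of the annotated 5′ end (chr19:30030401-30030500): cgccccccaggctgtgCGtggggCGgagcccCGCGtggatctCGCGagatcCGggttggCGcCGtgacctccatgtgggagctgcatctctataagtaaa

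The methylated windows held 1 to 7 CpGs and the unmethylated ones 10 to 19.

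To ask whether promoters of the methylation machinery lost methylation in the cKO cortex, the levels of each promoter were compared. Of the 10 promoters, 6 had covered cytosines. Those of Dnmt3b, Tet2, Tdg, Uhrf2 and Mbd3 were almost free of methylation in both groups, between 0% and 2.23% in every library, with at least 59 reads each. The promoter of Zbtb38 was the methylated exception. The promoters of Dnmt1, Dnmt3a, Tet1 and Tet3 at the annotated 5′ ends had no cytosine listed in any library. Their windows hold 1, 2, 0 and 1 CCGG sites, against a median of 5 over all protein-coding promoters.

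Among the writers, the Dnmt3b promoter (19 cytosines) was at 0.387%, 1.04% and 0.22% in control replicates 1, 2 and 3 and at 0.593%, 1.25% and 1.21% in cKO replicates 1, 2 and 3. The groups overlapped. Among the erasers, Tet2 (4 cytosines) was at 0%, 0% and 1.69% in controls and at 1.61%, 1.57% and 1.29% in cKOs. Tdg (14 cytosines) was at 0%, 0.746% and 0.398% in controls and at 0%, 1.94% and 1.30% in cKOs. At such levels a difference of 25 percentage points, the minimum for a call, could arise only as a gain. Among the readers, Uhrf2 (50 cytosines) was at 1.39%, 0.788% and 2.23% in controls and at 0.5%, 1.21% and 1.18% in cKOs. Mbd3 (4 cytosines) was at 0.714%, 0.481% and 1.16% in controls and at 0.671%, 1.79% and 1.61% in cKOs. Levels overlapped between the groups at both readers.

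The Zbtb38 promoter (10 cytosines, at least 160 reads per library) lies outside a CpG island. It was at 10.8%, 42.2% and 32.2% in control replicates 1, 2 and 3 and at 19.7%, 7.5% and 18.3% in cKO replicates 1, 2 and 3. Control replicates 2 and 3 were above all cKO libraries, and the library labelled control replicate 1 lay within the cKO range. The group means were 28.4% ± 16.1 (SD, n = 3) and 15.2% ± 6.67 (SD, n = 3), a difference that did not pass the moderated quasi-binomial test (Benjamini-Hochberg q = 0.975). Without the library labelled control replicate 1 the difference was -22.0 points and q was 0.162 in the same test.

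In all, 0 of the 6 promoters were called lower in cKOs with all 6 libraries, which required a q under 0.01 and group means at least 25 points apart, and 0 had an unadjusted p under 0.05. Over all 11787 promoters tested 0.0% were called and 2.21% had an unadjusted p under 0.05, and limma also called 0. When control replicate 1 was left out, 0 of the 6 were called against 0.806% of all promoters. The Zbtb38 promoter was then the 1 of 6 at which every cKO library lay below both controls, against 12.0% of all promoters.

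**Figure D1:**
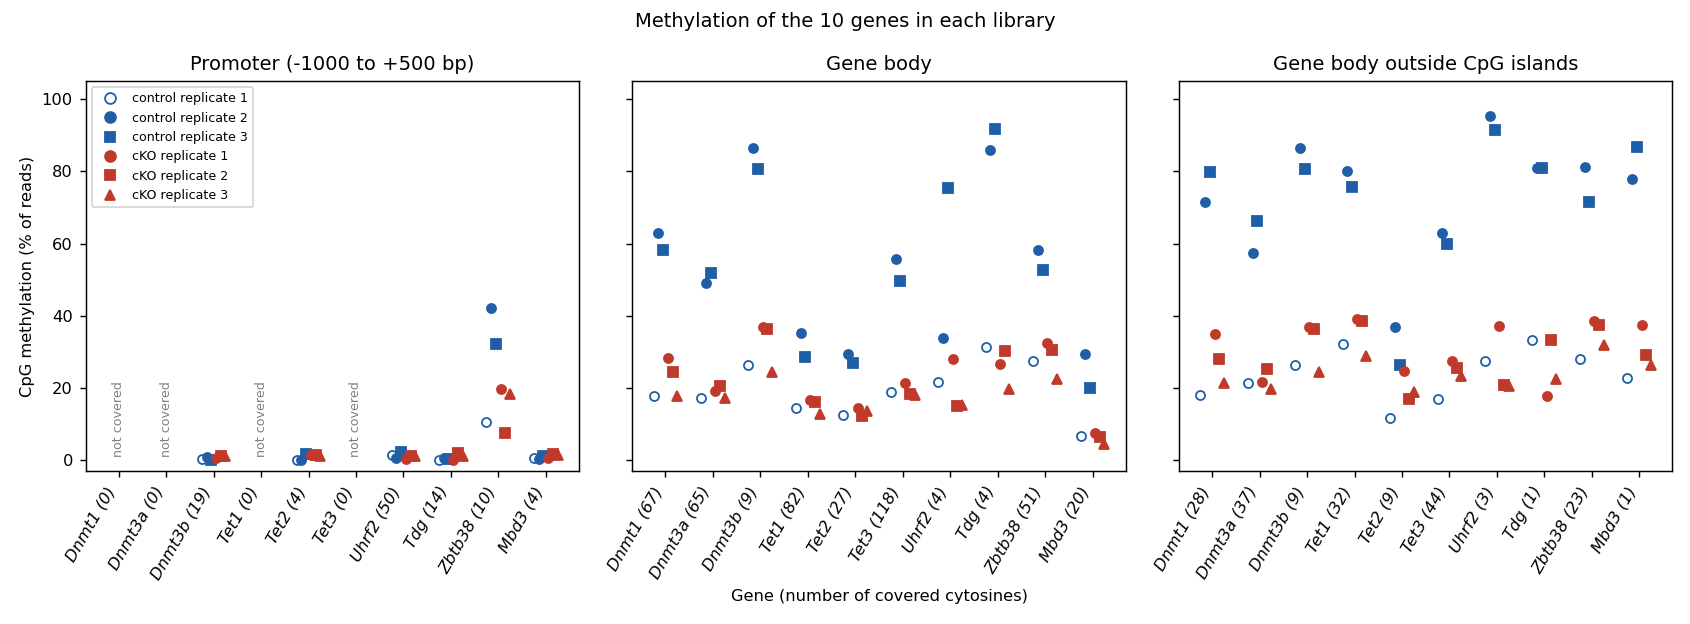
CpG methylation in percent of reads (vertical axis) in each library, for the promoter, the gene body and the gene body outside CpG islands of the 10 genes (horizontal axis, with the number of covered cytosines). Blue marks controls, red marks cKOs, and an open symbol marks the library labelled control replicate 1. Promoters other than that of Zbtb38 stay at or below 2.23%, while in the bodies control replicates 2 and 3 lie above all 3 cKO libraries in 10 of 10 genes.

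The bodies of all 10 genes were next compared. Control replicates 2 and 3 lay above the 3 cKO libraries at each of them, and the library labelled control replicate 1 lay among or next to the cKO libraries. With all 6 libraries no body was called lower. Without that library 6 of 10 were lower, those of Dnmt1, Dnmt3a, Dnmt3b, Tet3, Tdg and Zbtb38, by 26.9 to 63.2 points.

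Of the writers, the body of Dnmt1 (67 cytosines) was at 17.8%, 62.9% and 58.2% in control replicates 1, 2 and 3 and at 28.4%, 24.5% and 17.7% in the cKO libraries. Dnmt3a (65 cytosines) was at 17.3%, 49.1% and 51.9% in controls and at 19.2%, 20.5% and 17.4% in cKOs. Dnmt3b (9 cytosines) was at 26.4%, 86.4% and 80.7% in controls and at 36.9%, 36.4% and 24.5% in cKOs. At each writer the library labelled control replicate 1 was at or below the highest cKO library. Without it, Dnmt1 fell by 37.0 points (q = 5.85e-06, moderated quasi-binomial test), Dnmt3a fell by 31.4 points (q = 2.05e-06) and Dnmt3b fell by 51.0 points (q = 3.39e-05). In the fit of all 6 libraries q was 0.213 for each.

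Of the erasers, Tet1 (82 cytosines) was at 14.7%, 35.4% and 28.6% in controls and at 16.8%, 16.1% and 12.9% in cKOs. Tet2 (27 cytosines) was at 12.6%, 29.5% and 27.0% in controls and at 14.5%, 12.4% and 13.7% in cKOs. Tet3 (118 cytosines) was at 18.9%, 55.7% and 49.6% in controls and at 21.6%, 18.4% and 18.0% in cKOs. Of these cytosines 33 in Tet1, 12 in Tet2 and 36 in Tet3 lay within 500 bp of an annotated start of a coding transcript, where control replicates 2 and 3 averaged 10.3%, 0.84% and 0.605%. The body of Tdg was covered at 4 cytosines only, with at least 56 reads per library, and was at 31.3%, 85.9% and 91.7% in controls and at 26.6%, 30.4% and 19.8% in cKOs. Once control replicate 1 was left out, Tet3 fell by 33.3 points (q = 1.15e-06) and Tdg fell by 63.2 points (q = 0.000437). The differences of Tet1 (-16.7 points, q = 4.33e-05) and Tet2 (-14.7 points, q = 0.00298) passed the q threshold and stayed under the minimum of 25 points.

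Of the readers, Uhrf2 (4 cytosines) was at 21.6%, 33.9% and 75.4% in controls and at 28.2%, 15.0% and 15.3% in cKOs. Zbtb38 (51 cytosines) was at 27.7%, 58.1% and 52.7% in controls and at 32.5%, 30.6% and 22.5% in cKOs. Mbd3 (20 cytosines) was at 6.85%, 29.5% and 20.2% in controls and at 7.74%, 6.38% and 4.48% in cKOs. The pair of controls disagreed most at Uhrf2, whose level mixes 2 kinds of cytosine by their reads. Its 1 island cytosine was at 0% in all controls. The other 3 were at 95.2% and 91.5% in control replicates 2 and 3. Without the library labelled control replicate 1, Zbtb38 fell by 26.9 points (q = 5.34e-05), while Mbd3 differed by -18.6 points (q = 0.000149) and Uhrf2 by -35.2 points (q = 0.0286), so that neither was called. The Mbd3 value depended on the coverage minimum, since cytosines drop out as it rises. In the least covered library its 4 coding-exon cytosines had 27 reads summed, too few at 6 or more each for any to reach 10. These 4 averaged 85.4% in control replicates 2 and 3 and 28.0% in cKOs. At a coverage of at least 10 reads the difference between all cKO and all control libraries was 0.468 points in place of -12.6 points.

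With all 6 libraries 0 of 10 bodies were called, at q between 0.213 and 0.409, and 0.0% of all 13394 bodies were called. An unadjusted p under 0.05 was found for 6 of 10, against 21.9% of all bodies, and limma called 0 of them. When control replicate 1 was left out, 6 of 10 were lower, against 57.7% of all bodies. Every cKO library was then below both controls in 10 of 10, against 84.4%. The counts without this library were thus near those of the bodies of other genes.

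Since a body can hold both unmethylated islands and methylated sequence, the CpGs outside islands were compared on their own. There the level in control replicates 2 and 3 was between 31.7% and 93.4%, and in cKOs between 20.2% and 36.0%, in the 8 genes with at least 3 such cytosines. Once control replicate 1 was left out, 7 of the 8 were called lower, and Tet2 was the exception.

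Dnmt1 (28 cytosines) was at 18.2%, 71.4% and 79.7% in control replicates 1, 2 and 3 and at 35%, 28% and 21.5% in cKOs. Dnmt3a (37 cytosines) was at 21.4%, 57.3% and 66.2% in controls and at 21.6%, 25.2% and 19.8% in cKOs. Dnmt3b had no body cytosine in an island, and its values are those of the whole body. The library labelled control replicate 1 was below all cKO libraries at Dnmt1 and within their range at Dnmt3a and Dnmt3b. Without it the writers fell by 47.4, 39.5 and 51.0 points for Dnmt1 (q = 3.08e-08), Dnmt3a (q = 1.20e-08) and Dnmt3b (q = 4.82e-07) in the moderated quasi-binomial test.

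Tet1 (32 cytosines) was at 32.2%, 80.2% and 75.7% in controls and at 39.2%, 38.7% and 28.9% in cKOs. Tet3 (44 cytosines) was at 16.9%, 62.8% and 59.9% in controls and at 27.6%, 25.7% and 23.4% in cKOs. At both, control replicates 2 and 3 lay above all cKO libraries and the library labelled control replicate 1 below the highest of them. Tet2 (9 cytosines) was at 11.7%, 36.9% and 26.5% in controls and at 24.8%, 16.9% and 18.9% in cKOs. Control replicate 3 was there less than 2 points above the highest cKO library. Over the whole Tet2 body, islands included, its 10 coding-exon cytosines averaged 91.5% in control replicates 2 and 3 and 37.8% in cKOs. Its 10 intron cytosines averaged 10.8% and 8.09%. The level of the Tet2 body thus mixes cytosines of different levels. Without the library labelled control replicate 1 the difference was -42.4 points for Tet1 (q = 2.75e-08), -35.8 points for Tet3 (q = 7.92e-09) and -11.5 points for Tet2 (q = 0.0666). When control replicate 2 was left out in its place, the Tet2 difference was 1.10 points.

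Zbtb38 (23 cytosines) was at 28.1%, 81.1% and 71.6% in controls and at 38.5%, 37.6% and 32.0% in cKOs. Uhrf2 (3 cytosines, at least 21 reads per library) was at 27.6%, 95.2% and 91.5% in controls and at 37.3%, 20.9% and 20.6% in cKOs. The controls of Uhrf2, which were far apart over the whole body, lay close together once its island cytosine was set aside. Tdg and Mbd3 had 1 such cytosine each and were not tested. That of Tdg was at 33.3%, 81.0% and 81.0% in controls and at 17.9%, 33.3% and 22.6% in cKOs, and that of Mbd3 at 22.7%, 77.8% and 86.7% in controls and at 37.5%, 29.2% and 26.3% in cKOs. When control replicate 1 was left out the difference was -40.3 points for Zbtb38 (q = 1.25e-07) and -67.1 points for Uhrf2 (q = 0.000209).

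In the fit of all 6 libraries 0 of 8 were called, against 0.0% of all 10537 such bodies, 4 of 8 had an unadjusted p under 0.05, against 24.4%, and limma called 0. Once control replicate 1 was left out, 7 of 8 were lower, against 84.2% of all, and in 8 of 8 every cKO library was below both controls, against 95.6%. In cKOs a median of 40.3% of the level of control replicates 2 and 3 was left in these genes, from 28.2% in Uhrf2 to 63.7% in Tet2. Over all such bodies of at least 25% in these controls the median was 40.7%. Against all 3 controls these medians were 52.8% and 52.2%. The medians, and the counts without control replicate 1, were close to those of the bodies of other genes.

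Upstream flanks were almost without data. The only covered cytosines were 2 upstream of Dnmt1, which lie inside the neighbouring gene S1pr2. They were at 27.7%, 88.2% and 60.7% in control replicates 1, 2 and 3 and at 42.4%, 27.1% and 17.2% in cKOs, and 2 cytosines were too few for the test, which required 3.

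**Figure D2:**
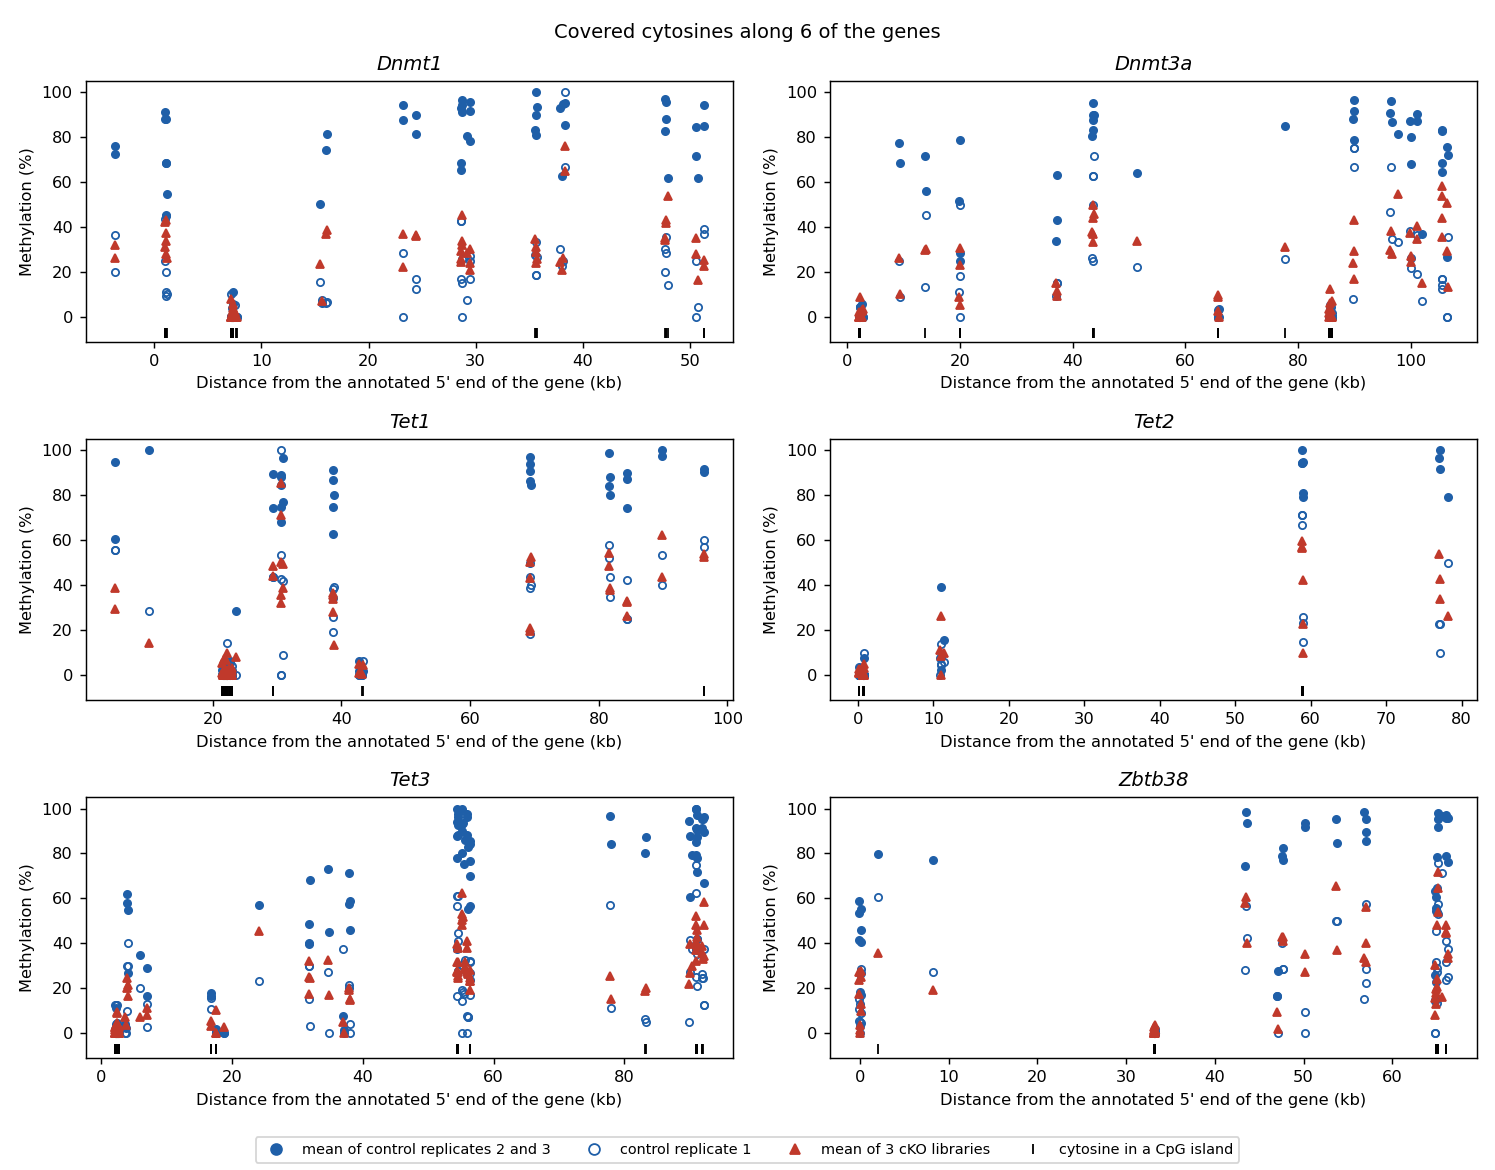
Methylation in percent (vertical axis) of each covered cytosine against its distance in kb from the annotated 5′ end (horizontal axis), for Dnmt1, Dnmt3a, Tet1, Tet2, Tet3 and Zbtb38. Filled circles are the mean of control replicates 2 and 3, open circles are the library labelled control replicate 1, triangles the mean of the 3 cKO libraries, and ticks at the foot mark cytosines in CpG islands. Clusters of cytosines near 0% in all libraries alternate with cytosines near 90% in control replicates 2 and 3 that lie near 35% in cKOs. Levels between these also occur: of the 214 windows of 100 bp in all 10 genes, 43 lay between 10% and 70% in these controls.

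The islands of the 10 loci were then compared, a class of regions added after the data had been seen. The loci held 39 computed CpG islands with a covered cytosine, and these fell into an unmethylated and a methylated set. In control replicates 2 and 3, 17 islands were under 10%, 21 were at 44.0% or more, and 1 lay between. Of the 17 unmethylated islands, 12 held an annotated start of a coding transcript, whereas 3 of the 21 methylated islands did. The unmethylated islands stayed at 7.04% or less on average in cKOs. The methylated ones had a median of 88.4% in control replicates 2 and 3 and of 35.4% in cKOs.

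Starts inside the genes lay in unmethylated islands at several members, among them Dnmt1, Tet1 and Tet3, whose promoters at the annotated 5′ end had no data. Dnmt1, which uses different first exons in oocytes and somatic cells, had an island with 3 starts (chr9:20952426-20953066, 19 cytosines) at 0.535%, 1.47% and 0.581% in control replicates 1, 2 and 3 and at 0.385%, 1.22% and 2.10% in cKOs. Tet1 had an island with 2 starts (chr10:62886091-62887677, 40 cytosines) at 0.731%, 0.875% and 0.357% in controls and at 0.862%, 1.24% and 0.959% in cKOs. Tet3 had an island with 1 start (chr6:83455729-83457358, 40 cytosines) at 0.852%, 0.415% and 0.606% in controls and at 0.244%, 1.67% and 1.37% in cKOs. The groups overlapped at each of these islands. The island at the downstream start of Zbtb38 (chr9:96719380-96720242, 15 cytosines) was at 0%, 0.282% and 0% in controls and at 1.01%, 0.532% and 1.28% in cKOs, so that the gene had a methylated promoter window at its annotated 5′ end and an unmethylated island within its body. Dnmt3a, which has a shorter isoform from an internal start, had an unmethylated island near its 5′ end (chr12:3806152-3808478) at 0% to 2.33% in controls and 0% to 2.78% in cKOs. Its island with 2 internal starts (chr12:3891562-3891761, 4 cytosines) was at 1.37%, 1.79% and 0% in controls and at 2.33%, 5.77% and 9.76% in cKOs. All 3 cKO libraries were above all controls there, by a difference of 4.90 points between group means. It did not pass the moderated quasi-binomial test (q = 0.856, and 0.485 without the library labelled control replicate 1). The same order held at the Zbtb38 island just named, by 0.848 points, and at the 5′ island of Mbd3 described below, by 0.479 points. The share of all islands with this order was not counted. For all promoters the median difference was 0.439 points.

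The methylated islands lay within the genes, mostly in coding exons and introns. In Tet3 a coding-exon island (chr6:83404409-83404768, 9 cytosines) was at 41.5%, 90.3% and 93.5% in controls and at 37.4%, 32.8% and 27.6% in cKOs. In Tet2 a coding-exon island (chr3:133486112-133486338, 6 cytosines) was at 31.0%, 94.0% and 88.4% in controls and at 41.2%, 33.3% and 36.6% in cKOs. At both, control replicates 2 and 3 were above all cKO libraries. An intronic island of Dnmt1 (chr9:20924014-20924396, 5 cytosines) was at 23.6%, 89.7% and 89.6% in controls and at 29.0%, 31.6% and 27.6% in cKOs. In Dnmt3a a coding-exon island (chr12:3849601-3849873, 5 cytosines) was at 53.8%, 88.6% and 90% in controls and at 70%, 17.6% and 38.5% in cKOs, so that here the cKO libraries differed most from each other.

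The 3 methylated islands that held a start lay in Tdg, Mbd3 and Tet1. That of Tdg (chr10:82644084-82644548, 3 cytosines) was at 29.3%, 88.4% and 97.4% in controls and at 33.3%, 28.1% and 18.0% in cKOs. That of Mbd3 (chr10:80394982-80395700, 6 cytosines) was at 36.7%, 86.6% and 91.5% in controls and at 28.3%, 36.4% and 18.9% in cKOs. That of Tet1 (chr10:62879519-62880070, 2 cytosines) was at 43.8%, 91.1% and 73.9% in controls and at 54.8%, 46.5% and 37.5% in cKOs. These starts belong to transcripts that begin inside the gene, and all 3 islands overlap coding exons. In Mbd3 the 2 classes of island lay side by side, since its other island, at the 5′ end (chr10:80398576-80400211, 17 cytosines), was at 0.915% or less in every library.

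**Figure D3:**
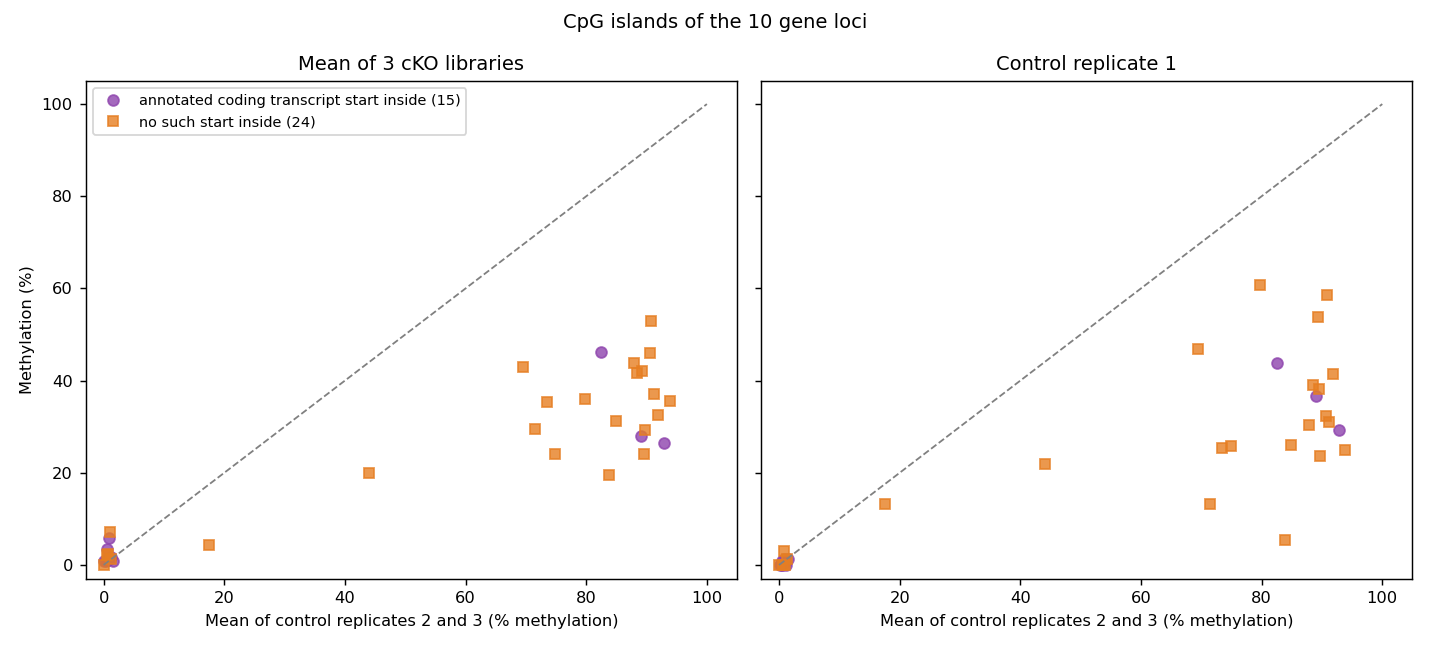
Mean methylation in percent of the 39 CpG islands of the 10 loci in control replicates 2 and 3 (horizontal axis) against the mean of the 3 cKO libraries (left, vertical axis) and the library labelled control replicate 1 (right, vertical axis), with a dashed line of equality. Each point is 1 island, and circles mark the 15 with an annotated start of a coding transcript inside. Of these 15, 12 lie near 0% on both axes, and the methylated islands lie below the line in both plots.

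Of the islands, 29 had at least 3 cytosines and were tested. With all 6 libraries 0 of 29 were called lower, against 0.0% of all 29824 islands, 3 had an unadjusted p under 0.05, against 9.85%, and limma called 0. Without the library labelled control replicate 1, 13 of 29 were lower, against 29.8% of all islands. The 13 were among 14 tested islands of at least 25% in control replicates 2 and 3, or 92.9% of them, against 70.3% of all 12644 such islands of the genome, and this difference was not tested. The exception was an intronic island of Dnmt3a (chr12:3825901-3826123), at 40.5% and 47.6% in these controls and at 26.8%, 19.2% and 13.6% in cKOs. Every cKO library was below both controls in 14 of 29, against 43.6%. The 15 tested islands under 10% could not be called lower under the minimum difference of 25 points, and 0 were called higher.

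At a finer scale the loci held 214 windows of 100 bp with a covered cytosine. In the fit of all 6 libraries 0 were called lower, against 0.0% of all 285466 windows, and 36 had an unadjusted p under 0.05, or 16.8% against 15.2%. The smallest q was 0.322, and limma called 0. When control replicate 1 was left out, 102 windows (47.7%) were lower, against 43.8% of all windows, and 0 were higher. Every cKO library was below both controls in 129 of 214, or 60.3% against 61.3%. The calls were found in all 10 genes, from 2 of 12 windows in Uhrf2 to 21 of 31 in Dnmt1 and 22 of 42 in Tet3.

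The windows were next grouped by their level in control replicates 2 and 3. Of 100 windows at 70% or more in control replicates 2 and 3, 88 were lower, with a median of 88.0% in these controls and 32.8% in cKOs. Of 43 windows between 10% and 70%, 14 were lower, with medians of 50.4% and 19.1%. The 71 windows under 10% could not be called lower, since a call required a fall of at least 25 points, and their highest mean in cKOs was 11.2%. Called windows fell by 27.8 to 85.9 points, and 36 of them lay in coding exons and 57 in introns alone. Of the 135 windows at 25% or more in these controls 75.6% were called, against 67% of all such windows of the genome, and this difference was not tested. Of these 135, the library labelled control replicate 1 was below both other controls in 134 and at or below the highest cKO library in 116. The matching shares over all such windows of the genome were not counted.

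**Figure D4:**
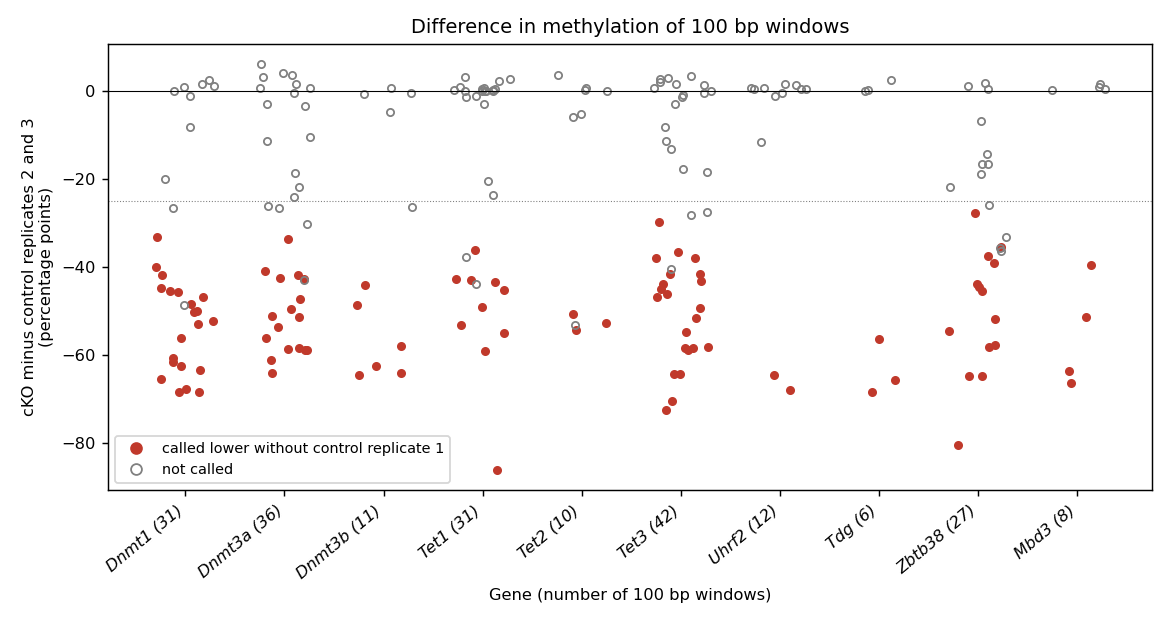
Difference in methylation between the mean of the 3 cKO libraries and the mean of control replicates 2 and 3, in percentage points (vertical axis), for 214 windows of 100 bp by gene (horizontal axis, with the number of windows). Filled points are the 102 windows that were called lower once the library labelled control replicate 1 was left out, open points were not called, and the dotted line marks the minimum difference of 25 points. Each gene has windows near 0 and windows well below the dotted line.

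The windows named by rule were those with most reads or the largest falls, and those of the writers are given first. The intron window of Dnmt1 printed above was at 18.5%, 93.6% and 94.3% in control replicates 1, 2 and 3 and at 42.8%, 33.3% and 23.8% in cKOs. The Dnmt3b window printed above was at 43.8%, 96.3% and 93.1% in controls and at 33.3%, 40.3% and 23% in cKOs. In Dnmt3a the intron window at chr12:3902501-3902600 was at 52.0%, 91.4% and 91.8% in controls and at 40.2%, 42.6% and 16.4% in cKOs. The library labelled control replicate 1 was below the cKO libraries at Dnmt1 but above all of them at Dnmt3b and Dnmt3a. Without it each was lower, by 60.7, 62.5 and 58.5 points for Dnmt1 (q = 3.41e-08), Dnmt3b (q = 5.32e-07) and Dnmt3a (q = 3.19e-06) in the moderated quasi-binomial test. In the fit of all 6 the differences were -35.5, -45.5 and -45.3 points, and none of the 3 was called, each at q = 0.322 in the same test.

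Among the erasers, the Tet3 coding-exon window printed above was at 40.4%, 90.3% and 97.1% in controls and at 27.5%, 39.8% and 20.9% in cKOs. Another coding-exon window of Tet3 (chr6:83403801-83403900) was at 16.8%, 88.7% and 93.0% in controls and at 60.6%, 61.2% and 40.7% in cKOs. These windows lie less than 1 kb apart, and the second kept more methylation in all 3 cKO libraries. The printed Tet1 coding-exon window was at 28.9%, 89.6% and 91.9% in controls and at 26.2%, 45.0% and 36.4% in cKOs. A further coding-exon window of Tet1 (chr10:62878301-62878400) was at 50.0%, 83.8% and 78.9% in controls and at 51.4%, 57.3% and 64.5% in cKOs. It had a difference of -23.6 points without the library labelled control replicate 1 and was not called. In Tet2 the coding-exon window at chr3:133468001-133468100 was at 18.8%, 95.5% and 96.7% in controls and at 57.1%, 37.0% and 35.7% in cKOs, and in Tdg the window at chr10:82644401-82644500 was at 26.7%, 84.4% and 96.8% in controls and at 32.1%, 20.8% and 21.6% in cKOs.

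Among the readers, a coding exon of Zbtb38 held neighbouring windows with different levels. The window at chr9:96687701-96687800 was at 50.0%, 84.4% and 77.0% in controls and at 63.9%, 50.3% and 44.6% in cKOs. The adjoining window at chr9:96687801-96687900 was at 38.5%, 59.2% and 50.0% in controls and at 18.4%, 22.4% and 16.7% in cKOs. Both were called lower when control replicate 1 was left out, by 27.8 points (q = 0.000437) and 35.5 points (q = 0.000158). In Mbd3 the coding-exon window at chr10:80395401-80395500 was at 38.9%, 86.9% and 100% in controls and at 28.7%, 46.7% and 14.0% in cKOs, and in Uhrf2 the window at chr19:30089001-30089100, in a non-coding exon, was at 27.9%, 93.3% and 87.9% in controls and at 35.8%, 19.2% and 23.1% in cKOs. In both, control replicates 2 and 3 were above all cKO libraries.

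The unmethylated windows printed above carried little methylation in either group. That of Tet1 was at 1.71%, 0.348% and 0% in controls and at 0.513%, 0.909% and 1.47% in cKOs. That of Tet3 was at 1.03%, 0% and 0.758% in controls and at 0.621%, 3.65% and 3.11% in cKOs. That of Uhrf2 was at 0.493%, 0.442% and 1.92% in controls and at 0%, 2.29% and 0% in cKOs. The groups overlapped at each of them.

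To set these genes beside others of the pathway, 52 further genes of methylation, base repair, chromatin and metabolism were counted in the same fits. With all 6 libraries 0 were called lower in any class. An unadjusted p under 0.05 was found at 0 of 39 promoters, 5 of 12 flanks (19.4% of all 3669 flanks, of which 0.0% were called), 6 of 41 bodies and 5 of 29 bodies outside islands, and limma called 0. Once control replicate 1 was left out, 0 of 39 promoters were lower, 7 of 12 flanks against 52.5% of all flanks, 16 of 41 bodies against 57.7%, and 25 of 29 bodies outside islands against 84.2%. Their median promoter level was 0.802% in control replicates 2 and 3 and 1.46% in cKOs, against 0.694% and 1.30% over all promoters. Their bodies started lower, at a median of 36.9% in control replicates 2 and 3 against 57.7% over all bodies. Only bodies at 25% or more in these controls could be called lower, and these were 29 of the 41, against 10007 of all 13394.

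Among these genes, the flank of Uhrf1, the deleted gene, was at 21.6%, 90.2% and 88.7% in control replicates 1, 2 and 3 and at 34.8%, 27.5% and 24.4% in cKOs. The flank of Ehmt1, a histone H3 lysine methyltransferase, was at 30.8%, 78.7% and 93.2% in controls and at 14.8%, 25.5% and 23.2% in cKOs. These flanks, and the bodies given next, were named for the largest differences among those called without control replicate 1. Their calls thus follow from that choice. Without that library the flanks were lower by 60.6 points (q = 5.38e-09) and 64.8 points (q = 1.17e-06) in the moderated quasi-binomial test. The bodies of the base excision repair genes Neil1 and Apex1 were then lower by 48.5 points (q = 4.12e-05) and 48.1 points (q = 0.00585). Set against all 3 controls the differences were -38.0, -46.4, -27.2 and -28.3 points for Uhrf1, Ehmt1, Neil1 and Apex1, at q between 0.252 and 0.410 in the same test, and none was called. The uncalled genes with most reads were Ehmt2 among flanks (-10.6 points, q = 0.000112) and Cxxc5 among bodies (-5.89 points, q = 0.00557), both under the minimum difference. The Uhrf1 promoter, which is not the deleted exon, was at 4.65%, 9.30% and 7.49% in controls and at 4.87%, 8.56% and 2.38% in cKOs.

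Of the 39 tested promoters of these genes, 3, named after their values were seen, reached over 50% in at least 1 control. Dppa3, a maternal factor that protects 5mC from oxidation, had a promoter at 37.5%, 73.8% and 81.5% in controls and at 50.0%, 52.8% and 43.7% in cKOs. Zfp42, a pluripotency gene also known as Rex1, was at 42.5%, 85.7% and 90.5% in controls and at 38.4%, 61.1% and 43.1% in cKOs. The X-linked Zbtb33, which encodes Kaiso, was at 0%, 51.4% and 0% in controls and at 18.6%, 1.92% and 21.6% in cKOs. At Dppa3 and Zfp42 control replicates 2 and 3 were above all cKO libraries. Without the library labelled control replicate 1, q was 0.0572 and 0.0278 in the moderated quasi-binomial test, so that neither was called. At Zbtb33 the libraries did not separate by group. The sex of the embryos behind each library was not considered, and its bearing on this X-linked promoter was not tested. The promoter of Apobec2, with 2 covered cytosines and therefore not tested, was at 87.0%, 69.2% and 62.5% in controls and at 88.5%, 80.0% and 78.9% in cKOs.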

How the data were processed

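Per the labels, 3 control and 3 cKO libraries of Ox-RRBS were deposited, each as a table of its own with a read count (coverage) and the percent of reads that were C or T for each cytosine and strand. The authors aligned reads with Genomatix software, keeping perfect matches. The notes of the submitters name GRCm38 and methylKit. The deposited percent values are not normalized between libraries, and libraries were not pooled. The lowest deposited coverage count was 6 reads. All 1605638 listed cytosines were the C of a CpG. Reads carry no molecular identifiers, so they are not independent molecules.

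Methylated reads were recovered as whole numbers from coverage and percent and summed over promoters, flanks and bodies (at least 3 cytosines), over computed CpG islands (length from 200 bp, GC from 50 percent, CpG ratio of observed to expected from 0.6) and over 100 bp windows, using GENCODE M21. Levels are thus weighted by reads. The number of reads given for a region is the coverage summed over its cytosines, so a read over several cytosines counts more than once. A quasi-binomial F test of group (two-sided), with dispersion moderated by empirical Bayes as in limma 3.58.1, was fitted over all features of each class with Benjamini-Hochberg adjustment. Features were called at q under 0.01 and a difference between group means of at least 25 points, the thresholds and window length of the study. limma on the percent per library, the plain binomial test, a replicate block, coverage minima of 10 and 20 reads, other thresholds and the omission of each library were alternatives. The scripts were tested on simulated data (numpy 2.4.6, pandas 2.3.3 and scipy 1.17.1 in Python 3.11.15, R 4.3.3, plots with matplotlib 3.10.9). An exact permutation test of 3 against 3 libraries cannot give a p below 0.1 and was not used. The members, the pathway list and the tests were chosen with earlier results of these data known. Windows were named by rule: per gene, up to 2 with most reads in the least covered library among those of at least 25 percent over all libraries and 2 cytosines, and up to 2 with the largest falls among those called without control replicate 1 with at least 2 cytosines and 20 reads in every library. Other pathway genes were named by the largest differences among those called in each class, and the uncalled one with most reads.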

Additional observations from a re-analysis of the deposited data

How the results depend on the processing

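With all 6 libraries the counts of promoters, bodies, bodies outside islands, windows and islands called lower were 0, and they were 0 under coverage minima of 10 and 20 reads, more cytosines per feature, the dispersion of each feature alone, limma on the percent or on the mean over cytosines, autosomes only, a q under 0.05 and no minimum difference. With reads taken as replicates, in the plain binomial test, the counts were 2 bodies, 5 bodies outside islands, 89 windows, 10 islands and 0 promoters. Leaving out each library in turn gave 0 to 6 bodies, 0 to 7 bodies outside islands, 0 to 102 windows and 0 to 13 islands, and every highest count came without control replicate 1. Without that library the counts of bodies, bodies outside islands, windows and islands were 6, 6, 73 and 7 at a coverage of at least 10 reads, 6, 7, 103 and 13 on autosomes only, 7, 7, 111 and 13 at a q under 0.05, 9, 7, 104 and 13 with no minimum difference, and 6, 7, 49 and 10 with limma on the percent. The last 2 alternatives and the islands as a class were added after the data had been seen. Upstream flanks gave no value, since no flank of these genes had 3 covered cytosines. Differences changed sign for the Mbd3 body (0.468 and 0.193 points at coverages of at least 10 and 20 reads, and 0.413 at 10 reads without control replicate 1), the Uhrf2 promoter (0.356 at 20 reads), the Tet2 body outside islands (1.10 without control replicate 2, and from there down to -11.5 without control replicate 1) and the Tet3 window at 83403801 (1.38 without control replicate 3, and down to -36.7 without control replicate 1). At Mbd3 the higher minima left out methylated cytosines, as given above, and the cause at the others was not tested. Same-numbered control and cKO libraries had correlations of deviations of -0.191, 0.0555 and -0.238 over windows, which gave no sign of pairing by number. Deviations from a group mean are tied to each other within the group, so these values cannot exclude a pairing. The fit with the replicate block called 0 of these genes in each class. Coverage of 13 to 17 reads at the median limits single cytosines. Bodies of 4 cytosines (Uhrf2 and Tdg) rest on at least 57 and 56 reads per library, summed over cytosines.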
